A study of Mus musculus with 6 samples.

Results

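Cytosolic ribosomal protein genes encode the proteins of the large (Rpl) and small (Rps) ribosomal subunits, and were examined here in CUT&Tag-seq data from primary mouse cardiac fibroblasts. Members were taken by symbol, as Rpl or Rps with a number (plus any letter a, x, y or l that follows) together with Rplp0, Rplp1, Rplp2 and Rpsa, and genes named as pseudogenes with -ps were left out. Of 26742 genes to which the deposited regions were assigned, 67 were members, and 56 of these (37 Rpl and 19 Rps) had a region within 3 kb of a transcription start site (TSS), out of 22244 genes that did. Each gene was represented in each table by its densest region within 3 kb.

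CUT&Tag uses an antibody to bring a transposase to chromatin, so that reads accumulate where the antibody's target sits. There were 6 libraries, 1 per group, all from primary fibroblasts of the heart. The T set held NC, TGF-b and TGF-b+SiTAZ, and the S set held NC, TGF-b and TGF-b+SiSRF. TGF-b is the cytokine that turns fibroblasts into myofibroblasts. No label states the antibody, and T is read as TAZ and S as SRF because the study profiled these factors. The labels name siRNA against TAZ or SRF, whereas Piezo2 siRNA and a scrambled control are described in the study's text, and the series' design text describes a Tet3 knockout made with Cre virus, so the target of the siRNA and the genotype are not stated further. Neither the age of the mice nor what NC contained beyond its name is given in the labels. With 1 library per group there was no test, and every difference below lies between libraries.

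Ribosomal proteins are made in near equal amounts, and their genes are among the most strongly transcribed of growing cells. Their promoters are usually compact and rich in GC, and their transcripts carry a run of pyrimidines at the 5′ end through which growth signals act on translation. Fibroblasts that become myofibroblasts make large amounts of matrix protein, which calls on the ribosome. TAZ is a coactivator that reaches DNA through TEAD factors, and SRF binds an element named the CArG box.

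The promoter sequences of the 7 members with a region in all 4 tables are shown, because these have a value in every comparison, and that of Rps23 is added because its reads moved far in both T set comparisons. The region was not always the same one. That of Rpl38 lay 50 bp before the start in the T set for TGF-b against NC and 1265 bp past it for siRNA. In both S set comparisons it lay 1852 bp past the start. Regions of Rpl14 also differed between comparisons. Sequences are from RefSeq (GRCm38.p6, plus strand, written 5′ to 3′), from 250 bases before the most upstream listed start to 20 after it. They lie at chr2:180257129-180257398 for Rps21, chr7:24884342-24884611 for Rps19, chr15:5116363-5116632 for Rpl37 and chr11:101441995-101442264 for Rpl27. The windows of the other genes lie at chrX:74270566-74270835 for Rpl10, chr9:120571267-120571536 for Rpl14, chr11:114668330-114668599 for Rpl38 and chr13:90922872-90923141 for Rps23. Capitals mark matches, on either strand, to the ETS core, the SP/KLF box and the palindrome that are spelled out with the motif shares.
Rps21: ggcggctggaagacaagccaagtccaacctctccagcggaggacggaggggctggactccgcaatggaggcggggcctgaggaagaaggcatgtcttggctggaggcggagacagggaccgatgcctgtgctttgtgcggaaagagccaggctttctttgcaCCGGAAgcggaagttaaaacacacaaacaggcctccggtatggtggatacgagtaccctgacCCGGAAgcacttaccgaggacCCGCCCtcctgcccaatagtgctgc
Rps19: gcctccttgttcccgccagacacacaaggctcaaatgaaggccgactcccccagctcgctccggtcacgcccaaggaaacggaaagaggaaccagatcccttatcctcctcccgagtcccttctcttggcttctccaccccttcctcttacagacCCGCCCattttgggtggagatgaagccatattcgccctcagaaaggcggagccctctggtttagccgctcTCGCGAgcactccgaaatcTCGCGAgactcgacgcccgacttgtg
Rpl37: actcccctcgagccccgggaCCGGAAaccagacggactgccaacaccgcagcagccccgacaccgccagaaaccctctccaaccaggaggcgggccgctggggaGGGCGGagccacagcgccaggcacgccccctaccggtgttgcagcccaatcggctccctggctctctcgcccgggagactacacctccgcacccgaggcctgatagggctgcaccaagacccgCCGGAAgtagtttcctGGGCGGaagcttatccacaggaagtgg
Rpl27: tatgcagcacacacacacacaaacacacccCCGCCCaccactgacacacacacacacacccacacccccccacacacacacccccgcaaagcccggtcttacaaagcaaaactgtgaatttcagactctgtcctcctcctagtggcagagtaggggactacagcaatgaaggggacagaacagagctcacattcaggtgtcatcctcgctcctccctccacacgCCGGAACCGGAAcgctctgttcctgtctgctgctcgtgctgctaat
Rpl10: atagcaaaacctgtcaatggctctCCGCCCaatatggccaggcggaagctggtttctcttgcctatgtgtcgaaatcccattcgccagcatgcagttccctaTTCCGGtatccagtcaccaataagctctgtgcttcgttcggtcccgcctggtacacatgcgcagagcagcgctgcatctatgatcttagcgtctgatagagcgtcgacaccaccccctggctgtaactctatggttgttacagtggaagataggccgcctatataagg
Rpl14: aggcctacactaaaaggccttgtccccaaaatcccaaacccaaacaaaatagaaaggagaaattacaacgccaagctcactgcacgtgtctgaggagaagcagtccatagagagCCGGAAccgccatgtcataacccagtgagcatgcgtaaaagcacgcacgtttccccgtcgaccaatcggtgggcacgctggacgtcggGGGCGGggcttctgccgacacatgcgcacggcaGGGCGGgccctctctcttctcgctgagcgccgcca
Rpl38: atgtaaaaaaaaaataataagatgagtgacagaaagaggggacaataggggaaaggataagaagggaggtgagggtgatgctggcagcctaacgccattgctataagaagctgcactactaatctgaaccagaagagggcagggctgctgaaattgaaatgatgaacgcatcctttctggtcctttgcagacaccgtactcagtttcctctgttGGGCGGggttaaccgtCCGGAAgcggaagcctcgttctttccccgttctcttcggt
Rps23: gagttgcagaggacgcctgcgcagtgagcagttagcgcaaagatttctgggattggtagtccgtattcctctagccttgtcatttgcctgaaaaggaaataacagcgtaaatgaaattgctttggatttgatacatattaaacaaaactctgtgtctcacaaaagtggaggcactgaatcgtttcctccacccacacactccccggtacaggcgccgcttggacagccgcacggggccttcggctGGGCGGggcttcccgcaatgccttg

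The window of Rps21 held 2 ETS cores and 1 SP/KLF box, and that of Rpl27 held 2 ETS cores side by side and 1 SP/KLF box. In Rps19, 2 copies of the palindrome stood close to the start. The Rpl37 window held 2 ETS cores and 2 SP/KLF boxes, whereas Rps23 held 1 SP/KLF box alone. None of the 8 printed sequences held a TEAD element or a CArG box.

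Motifs were counted over the 64 member symbols with an entry in the RefSeq promoter table, in windows of 300 bases on both strands, beside all 27025 genes of that table. The ETS core, CCGGAA, the binding core of ETS factors, was found in 32 members (50%) and in 15.2% of all genes. The SP/KLF box, GGGCGG, was found in 38 members (59.4%) and in 35.9% of all. The palindrome TCGCGA was found in 13 members (20.3%) against 2.60% of all, and a pyrimidine run directly at the listed start in 13 members (20.3%) against 2.48%. The YY1 motif, AAGATGGC, was found in 6 members (9.38%) against 2.87%, and TATAAA in 8 (12.5%) against 14.2%. The TEAD element, CATTCC, occurred in 6 members (9.38%) against 14.7% of all, namely in Rpl22, Rpl26, Rps16, Rps24, Rps26 and Rps27. Among the 38 members that also had a region within 3 kb, it occurred in 5 (13.2%), near the share of all genes. The CArG box occurred in Rpl10a alone (1.56% against 1.59%). Median GC content was 57.0% in members and 52.7% in all windows. The start of a RefSeq window need not be the TSS to which the deposited regions were assigned.

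Which ribosomal protein genes carried a region was considered first. Of 84 protein-coding symbols that the rule takes from RefSeq, 54 (64.3%) had a T set region within 3 kb and 24 (28.6%) an S set region. The corresponding shares of all 21896 protein-coding symbols were 63.4% and 34.0%. All S set members but Rps16 also had a T set region. By library, 31 members were called (that is, held a region called as a peak by the authors in that library) in T set NC, 27 in T set TGF-b and 37 in T set TGF-b+SiTAZ. Leaving out Rps4l, which is not among the RefSeq protein-coding symbols and was called in NC, these were 35.7%, 32.1% and 44.0% of the 84 symbols, beside 44.6%, 34.5% and 43.5% of all protein-coding genes. S set libraries had 3 members called in NC, 9 in TGF-b and 18 in TGF-b+SiSRF. The S set shares were 3.57%, 10.7% and 21.4% for members against 11.6%, 15.5% and 21.3% for all protein-coding genes. Members called in every library of the T set numbered 10, among them Rpl10, Rpl18, Rpl27, Rpl3, Rpl37, Rplp0, Rps19, Rps25 and Rps29, and in the S set only Rps19 was called in every library. These were 11.9% and 1.19% of the symbols, beside 19.0% and 2.56% of all protein-coding genes.

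For 11 members, every region lay beyond 3 kb, and no value is given for them: Rpl19, Rpl27a, Rpl7l1, Rpl9, Rps10, Rps15a, Rps27, Rps27a, Rps27l, Rps3a1 and Rps6. Rps6 encodes the best known phosphoprotein of the ribosome, and Rps27a encodes a ubiquitin fusion. Another 18 symbols taken by the rule had no region in any table, among them Rpl4, Rpl6, Rpl7a, Rpl12, Rpl13, Rpl24, Rpl37a, Rps2, Rps4x, Rps13, Rps15 and Rps28, together with the paralogs Rpl3l, Rpl10l and Rpl39l and the symbol Rpl32l. Rpl3l and Rpl10l are forms known from striated muscle and testis. Of 7 paralogs, only Rpl22l1 and Rps4l had a region within 3 kb, each in 1 table.

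Member genes held 133 regions in the T set table of TGF-b against NC, 74 of them beyond 3 kb and not used here, and 127 in that of siRNA against TGF-b, 63 of them beyond 3 kb. Within 3 kb, the densest region of most members lay close to the start site. Of 41 members in the T set table of TGF-b against NC, 29 had their densest region within 300 bp of the TSS and 33 within 1 kb (80.5%, against 68.8% of all genes). The median distance was 102 bp for members and 355 bp for all genes. In the S set table of siRNA against TGF-b, 20 of 22 members lay within 1 kb (90.9% against 76.4%), at a median of 80.5 bp against 171 bp. Regions of the members that were annotated away from the promoter included that of Rpl30 (downstream, 2882 bp). Of the members, 7 had the start of another protein-coding gene within 1 kb in GENCODE M21 (Rpl15 with Nkiras1, Rpl3 with Syngr1, Rpl35 with Arpc5l, Rpl35a with Iqcg, Rps18 with Vps52, Rps24 with Polr3a and Rps25 with Trappc4), and reads there cannot be told apart between the genes, since they were counted over a window of 2 kb.

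**Figure D1:**
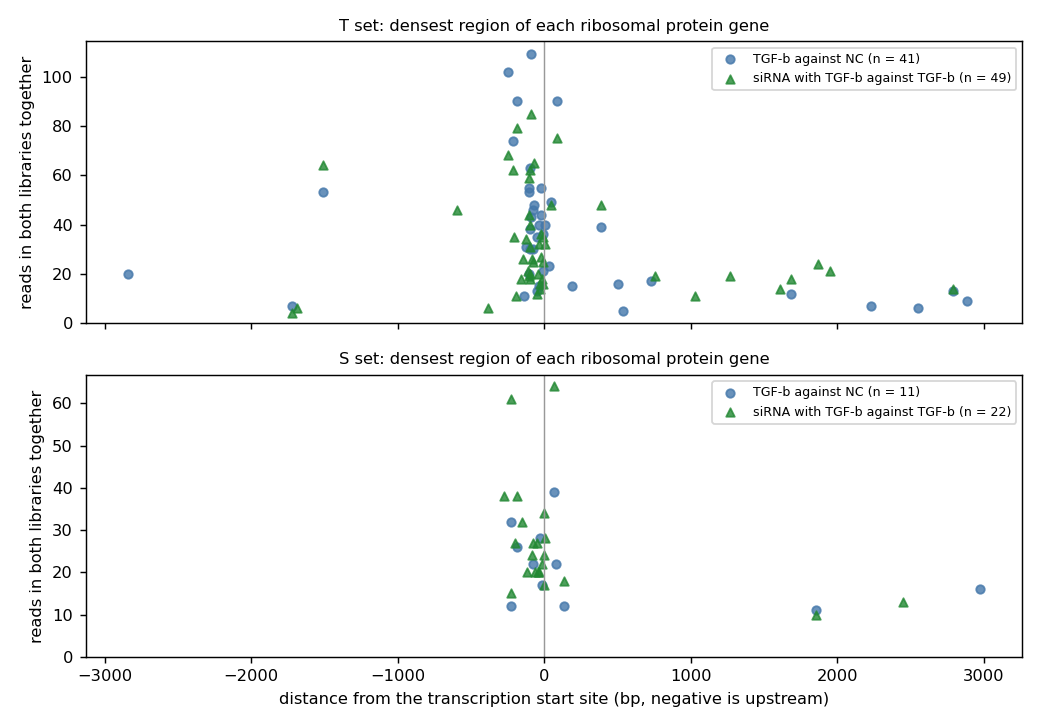
Distance of each member's densest region from the transcription start site in bp (x axis) against the reads of both libraries together (y axis), for the T set (top) and the S set (bottom), with circles for TGF-b against NC and triangles for siRNA with TGF-b against TGF-b. Most points, and all those with over 70 reads, stand within 300 bp of the start.

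Levels were ranked within each table. In the T set table of TGF-b against NC, the median member ranked at percentile 60.7 of all genes' densest promoter regions by mean density, and 24 of 41 members stood above the median gene. Its rank in the other T set table was percentile 54.6, with 27 of 49 above. The median S set member ranked at percentile 42.0 in the table of TGF-b against NC and at 38.6 in that of siRNA against TGF-b. The highest T set members in TGF-b against NC were Rpl7 (percentile 95.6), Rps21 (94.7), Rps19 (92.9) and Rpl37 (92.8). Rps19 (92.1) and Rps21 (90.8) led the S set table of siRNA against TGF-b, followed by Rpl13a (69.3) and Rpl37 (69.1). Densities are not scaled to gene length or library size, and these ranks hold within a table only.

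The depth was low. Members held a median of 35 reads in both libraries together in the T set table of TGF-b against NC, 22 in the corresponding S set table, and 25 and 24 in the tables with siRNA. Values below are reads recovered from the densities (library by library, in a window of 2 kb), followed by the log2 ratio of the normalized densities and, in brackets, its Wilson 95% interval, which covers counting error only. A gene enters a table because a peak was called in at least 1 of its 2 libraries, so a region called in 1 library alone was chosen partly for being dense there. Markers of the labelled cells and of other cells were looked up too. In the T set table of TGF-b against NC, 6 of 9 fibroblast markers had a promoter region, with a summed density of 47.8 in NC and 39.9 in TGF-b, whereas Pdgfra, Tcf21 and Thy1 had none. A promoter region was also held by 4 of 5 cardiomyocyte (24.5 and 17.7), 3 of 4 endothelial (27.2 and 23.2), 2 of 4 leukocyte (23.5 and 9.78) and 3 of 3 smooth muscle and pericyte markers (21.7 and 15.5). These sums cover unequal numbers of markers. The mean per marker in NC and TGF-b was 7.97 and 6.66 for fibroblast, 6.14 and 4.42 for cardiomyocyte and 9.08 and 7.75 for endothelial markers. It was 11.8 and 4.89 for leukocyte and 7.23 and 5.16 for smooth muscle and pericyte markers. In the T set table of siRNA against TGF-b, the sums were 26.4 in TGF-b and 27.5 with siRNA for 5 fibroblast markers, 9.40 and 22.2 for 4 cardiomyocyte markers and 10.7 and 23.5 for 3 leukocyte markers. In the S set, 2 and 1 of 9 fibroblast markers had a promoter region in the table of TGF-b against NC and in that of siRNA. A CUT&Tag region is not a transcript, so these lists do not check the cell type, and the part of other cells in the results was not tested.

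TGF-b was first compared with NC in the T set, which asks whether the cytokine moved the presumed TAZ signal at ribosomal protein genes. Of 41 members, 7 were at least 2-fold higher, among them Rps20 and Rps23, and 9 were at least 2-fold lower, led by Rps7 and Rpl10a. The median log2 ratio was 0.29 (quartiles -0.46 and 0.51), beside -0.04 over all 16652 genes. At least 2-fold higher were 20.6% of all genes and at least 2-fold lower 25.1%. Counting intervals lay above 0 for 10 members and below 0 for 8, beside 22.7% and 21.7% of all genes, and the members' counts are near these shares in each direction. By subunit, the median was 0.31 for 26 Rpl genes and 0.24 for 15 Rps genes.

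Among the higher members, Rps20, a protein of the small subunit's head, had 0 reads in NC and 21 in TGF-b, at least 5.99-fold higher with the NC library set to a floor of 3 reads. Rps23, which lies at the decoding centre, went from 1 to 19 reads (3.48, 1.85 to 6.96). Rps18 had 3 reads in NC and 12 in TGF-b (1.85, 0.43 to 3.87). These 3 small-subunit genes were nearly empty in the NC library, and their regions were called in TGF-b alone.

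Among large-subunit genes, Rpl27 had 11 reads in NC and 37 in TGF-b (1.71, 0.85 to 2.75) and was the only member past 2-fold whose region was called in both libraries. Rpl35, a protein near the exit of the peptide tunnel, had 9 and 30 reads (1.70, 0.75 to 2.85). Rpl38 had 3 and 10 (1.61, 0.14 to 3.64). Of the denser members, 3 were less than 2-fold higher with intervals above 0. Rpl7 went from 37 to 72 reads (0.91, 0.36 to 1.5), Rpl37 from 32 to 58 (0.82, 0.22 to 1.46) and Rpl18 from 20 to 35 (0.80, 0.05 to 1.62).

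On the lower side, Rps7, a small-subunit protein that also binds Mdm2, had 39 reads in NC and 1 in TGF-b (-4.19, -7.69 to -2.63). Rpl10a had 17 and 0 reads, at least 4.11-fold lower with TGF-b at the floor of 3 reads. Rps4l, a paralog listed as a pseudogene in RefSeq, had 19 and 1 reads (-3.16, -6.64 to -1.53) at 2840 bp upstream. Rpl31 had 32 and 6 reads (-2.16, -3.56 to -1.11) directly before its start. Rpl14 had 25 and 10 (-1.17, -2.29 to -0.22). The others past 2-fold were Rpl34 (12 and 1 reads), Rpl30 (8 and 1), Rpl36a (11 and 4) and Rpl5 (5 and 0, at least 1.32-fold lower at the floor). Of these 9, all but Rpl14 were called in NC alone.

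Many members with the best read support barely differed between the 2 libraries. Rps21 had 51 reads in each (-0.03, -0.59 to 0.52). Rps19, the protein most often mutated in Diamond-Blackfan anaemia, had 52 and 38 (-0.46, -1.07 to 0.13). Rplp0, the base of the ribosomal stalk on which translation factors dock, had 28 and 35 (0.32, -0.38 to 1.04). Its stalk partner Rplp2 had 21 and 28 (0.43, -0.36 to 1.25). Rpl13a had 35 and 39 (0.15, -0.50 to 0.81), and Rpl10, a protein that joins the large subunit late, had 24 and 29 (0.29, -0.47 to 1.07). The intervals of these 6 genes span 0, and differences within them were not detectable at this depth.

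Rpsa, also known as the laminin receptor, had 20 and 23 reads (0.24, -0.61 to 1.10). Rps3, which sits where the mRNA enters, had 23 and 21 (-0.08, -0.93 to 0.75), and Rps14 had 23 and 30 (0.40, -0.36 to 1.18). Rpl11, which with Rpl5 can bind Mdm2, had 15 in each library (0.07, -0.94 to 1.09), and Rpl3, at the peptidyl transferase centre, had 10 and 13 (0.45, -0.68 to 1.63). Rps25 (19 and 21 reads), Rpl28 (27 and 19), Rpl41 (24 and 31), Rps26 (15 and 15) and Rps29 (16 and 20) had intervals that span 0. So had the thin regions of Rps9, Rpl29, Rpl39, Rpl36 and Rpl17, with between 2 and 9 reads in any library. The 13 members called in both libraries had a median of 0.32, beside 0.30 for all 3370 such genes.

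**Figure D2:**
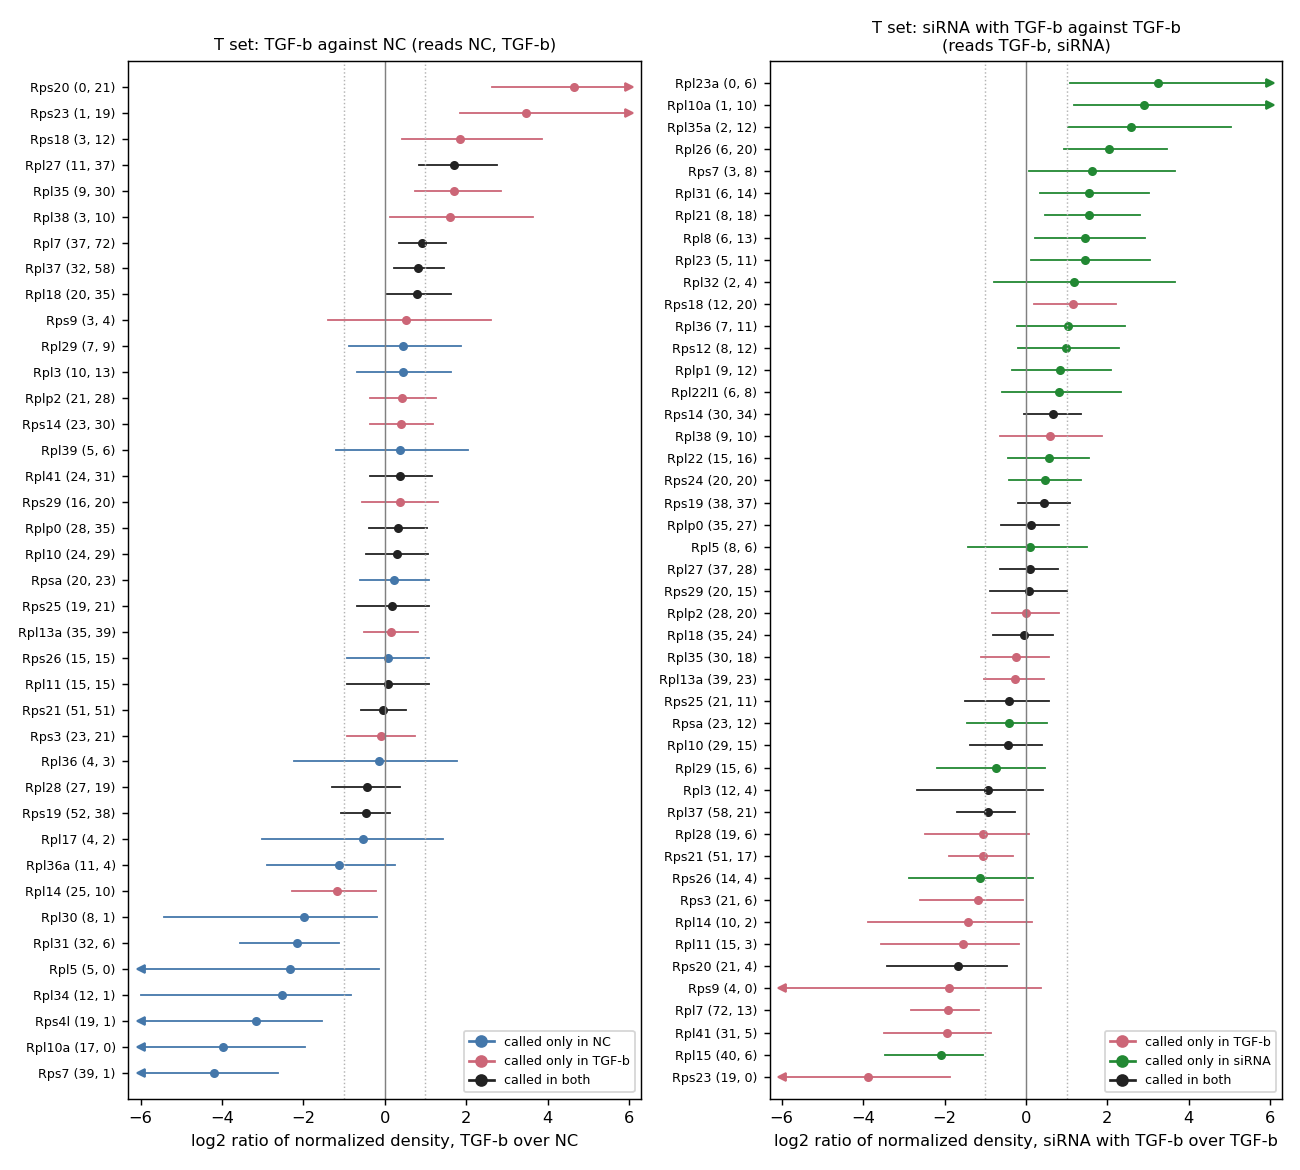
Log2 ratio of normalized read density (x axis) for ribosomal protein genes in the T set, TGF-b over NC on the left (39 of 41 genes) and siRNA with TGF-b over TGF-b on the right (46 of 49 genes), with reads in both libraries after each name. Bars are Wilson 95% intervals for counting error, arrows run beyond the axis, dotted lines mark 2-fold, and colours show in which library the region was called. Most genes called in both libraries (black) lie within 2-fold, with Rpl27 on the left and Rps20 on the right as exceptions.

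The siRNA library with TGF-b was then set against TGF-b alone in the T set. Here 13 of 49 members were at least 2-fold higher, among them Rpl26 and Rpl31, and 12 at least 2-fold lower, led by Rps23, Rpl15, Rpl41 and Rpl7. Their median log2 ratio was 0.09 (quartiles -0.95 and 1.04), beside 0.20 over all 16732 genes. At least 2-fold higher were 31.5% of all genes and at least 2-fold lower 20.4%. Intervals lay above 0 for 11 members and below 0 for 9, beside 27.0% and 20.3% of all genes. The median of the members took the opposite sign when ratios were centred on all promoters (-0.11), without the authors' line (-0.39) and within 1 kb (-0.02), so no direction is given for the group. The median was 0.10 for 32 Rpl genes and -0.41 for 17 Rps genes. This comparison shares its TGF-b library with the one before.

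The deepest TGF-b regions were among those lower with siRNA. Rpl7 had 72 reads in TGF-b and 13 with siRNA (-1.91, -2.83 to -1.15). Rps21 had 51 and 17 (-1.05, -1.89 to -0.33), and Rpl37 had 58 and 21 (-0.95, -1.70 to -0.27). Rpl15 had 40 and 6 (-2.08, -3.47 to -1.07), at 597 bp upstream in a window near the start of Nkiras1. Rpl41, the smallest ribosomal protein, had 31 and 5 (-1.95, -3.49 to -0.85). All 5 had intervals below 0.

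Rps23 had 19 reads in TGF-b and 0 with siRNA, at least 3.64-fold lower at the floor. Rps20 had 21 and 4 (-1.68, -3.41 to -0.46), Rps3 had 21 and 6 (-1.19, -2.61 to -0.08), and Rpl11 had 15 and 3 (-1.54, -3.56 to -0.18). Rpl28 (19 and 6 reads), Rps26 (14 and 4), Rpl14 (10 and 2) and Rps9 (4 and 0) also passed 2-fold, with intervals that span 0. With the siRNA library of Rps9 at the floor of 3 reads the log2 ratio was 0.12, so no decrease can be given for it.

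Among the members higher with siRNA, Rpl26 had 6 reads in TGF-b and 20 with siRNA (2.05, 0.92 to 3.47), Rpl21 had 8 and 18 (1.54, 0.46 to 2.80), Rpl31 had 6 and 14 (1.56, 0.35 to 3.01) and Rps18 had 12 and 20 (1.16, 0.19 to 2.21). Rpl8 (6 and 13), Rpl23 (5 and 11), Rpl35a (2 and 12), Rpl10a (1 and 10), Rps7 (3 and 8) and Rpl23a (0 and 6, at least 2.39-fold) were higher with intervals above 0. Rpl32 (2 and 4) and Rpl36 (7 and 11) passed 2-fold with intervals that span 0. Apart from Rps18, these regions were called in the siRNA library alone. The Rps7 and Rpl10a regions here do not overlap those that were lower in TGF-b against NC.

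Several central members stayed within counting error. Rps19 had 38 and 37 reads (0.44, -0.21 to 1.09), Rpl27 had 37 and 28 (0.09, -0.63 to 0.78) and Rplp0 had 35 and 27 (0.11, -0.62 to 0.82). Rplp2 had 28 and 20 (0.01, -0.83 to 0.80), Rplp1 had 9 and 12 (0.84, -0.34 to 2.09), and Rpsa had 23 and 12 (-0.42, -1.46 to 0.52). Rpl18 had 35 and 24 (-0.05, -0.81 to 0.67), Rpl13a had 39 and 23 (-0.26, -1.02 to 0.45), Rpl10 had 29 and 15 (-0.44, -1.37 to 0.40), and Rps25 had 21 and 11 (-0.41, -1.5 to 0.56). The intervals of these 10 genes span 0.

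Rpl3 (12 and 4 reads), Rpl5 (8 and 6), Rpl22 (15 and 16), Rps24 (20 and 20), Rps12 (8 and 12), Rps29 (20 and 15), Rpl35 (30 and 18), Rpl38 (9 and 10) and the paralog Rpl22l1 (6 and 8) also had intervals that span 0. Rps14 had 30 and 34 reads (0.65, -0.04 to 1.36) at 1507 bp upstream, but -0.67 at the region nearest its start. Rpl29 had 15 and 6 (-0.73, -2.18 to 0.46), but 3.36 at its nearest region, so the sign of both depends on the region. The 12 members called in both libraries had a median of 0.01, beside -0.19 for all 2925 such genes.

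Reads in all 3 T set libraries could be set side by side for 28 members whose regions appear in both tables, and the TGF-b reads recovered from both tables were equal for all 28. In the order NC, TGF-b, siRNA, Rpl7 had 37, 72 and 13 reads, Rpl37 had 32, 58 and 21, and Rpl41 had 24, 31 and 5. Rps20 had 0, 21 and 4, and Rps23 had 1, 19 and 0. The counting intervals of Rps20, Rps23, Rpl7 and Rpl37 lay above 0 in the first comparison and below 0 in the second. Rpl31 was the reverse, with 32, 6 and 14 reads. Rps18 had 3, 12 and 20 reads, with both intervals above 0, and Rpl27 had 11, 37 and 28. Because both ratios use the same TGF-b library, a high or low count there alone would move them in opposite directions, and no share of members is read from this.

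**Figure D3:**
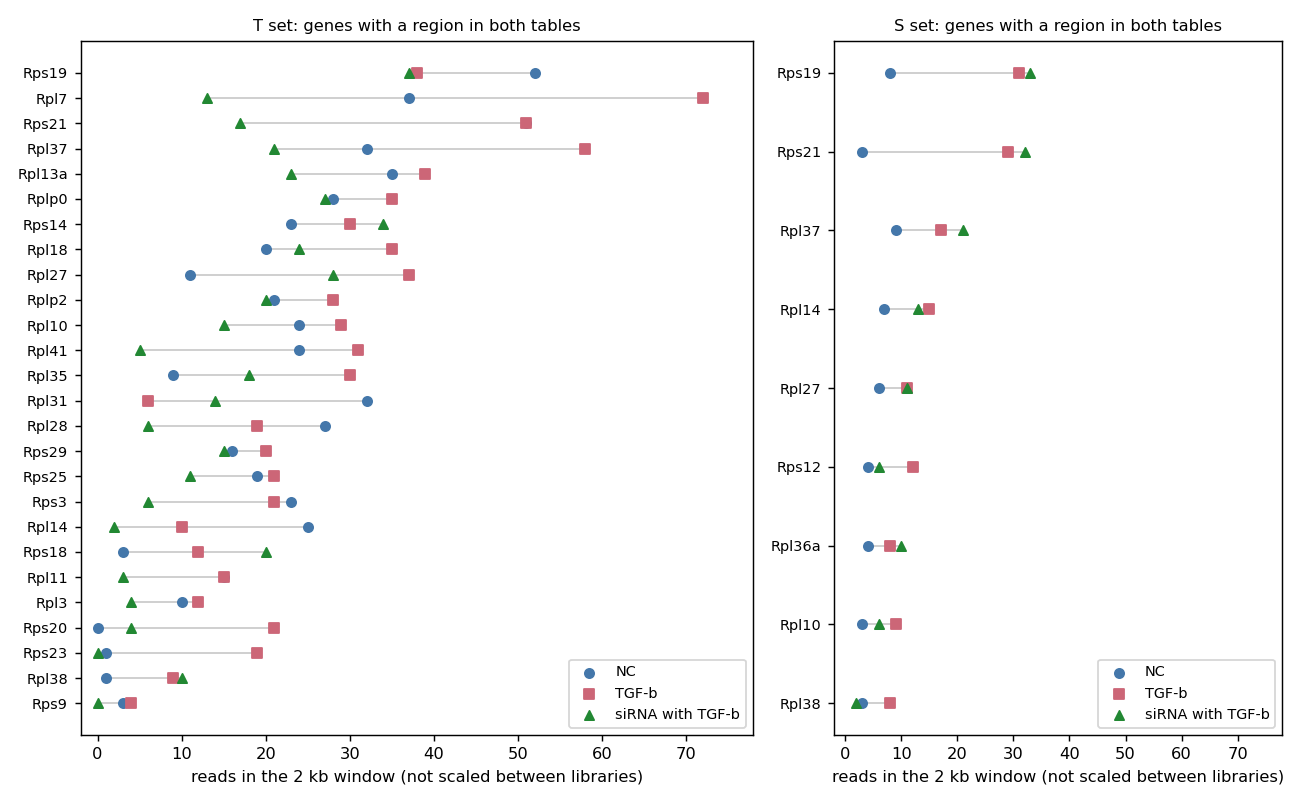
Reads in the 2 kb window (x axis, not scaled between libraries) for members with a region in both tables of a set, 26 of 28 genes in the T set (left) and 9 in the S set (right), with circles for NC, squares for TGF-b and triangles for siRNA with TGF-b. The NC circle of the S set is the lowest in all but Rpl38; Rps21 (51 reads) and Rpl11 (15 reads) of the T set have their NC circles behind the TGF-b squares.

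In the S set, TGF-b against NC asks the same of the presumed SRF signal, over 11 members. The small-subunit genes Rps21 and Rps19 were at least 2-fold higher, and the large-subunit gene Rpl21 was at least 2-fold lower. Rps21 had 3 reads in NC and 29 in TGF-b (2.33, 1.07 to 4.33), and Rps19 had 8 and 31 (1.27, 0.30 to 2.49). Rpl21 had 19 and 9 (-1.56, -2.76 to -0.53). The intervals of the other 8 span 0. The median log2 ratio was 0.43 (quartiles 0.23 and 0.76), beside 0.20 over all 6762 genes. At least 2-fold higher were 22.2% of all genes and at least 2-fold lower 15.9%, with intervals above 0 in 18.9% and below 0 in 11.5%.

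Raw reads were higher in TGF-b than in NC in 9 of these 11 genes, beside 73.0% of all genes in the table, and the authors' line lowers the ratios. Rpl37 had 9 and 17 reads (0.28, -0.79 to 1.49), Rpl14 had 7 and 15 (0.43, -0.73 to 1.78), Rpl27 had 6 and 11 (0.20, -1.09 to 1.67) and Rpl10 had 3 and 9 (0.73, -0.78 to 2.76). Rps12 (4 and 12), Rpl38 (3 and 8) and Rpl36a (4 and 8) also had more reads in TGF-b, and Rpl31 (12 and 10) did not (-0.81, -2.01 to 0.34). Without the line the median was 1.0 (0.77 over all genes) and 6 members were at least 2-fold higher (42.7% of all genes). All 9 genes with a ratio above 0 were called in TGF-b alone, both genes below 0 were called in NC alone, and no densest region was called in both libraries. Of all genes in the table, 52.7% were called in TGF-b alone, 39.4% in NC alone and 7.88% in both.

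When siRNA with TGF-b was set against TGF-b in the S set, 22 members had values, 4 of them at least 2-fold higher (13.6% of all 8145 genes) and 1 at least 2-fold lower (15.1% of all). The higher ones were Rps9, Rps16, Rps29 and Rpl8, and the lower one was Rpl38, which had 8 reads in TGF-b and 2 with siRNA (-1.44, -3.91 to 0.20). Rps29 had 10 and 24 (1.26, 0.29 to 2.38), Rps16 had 7 and 17 (1.26, 0.14 to 2.60), and Rps9 had 4 and 13 (1.60, 0.27 to 3.36). Rpl8 had 6 and 14, with an interval just reaching below 0 (1.20, -0.01 to 2.66). These 4 were called in the siRNA library alone. Intervals lay above 0 for 3 members and below 0 for 0, beside 12.3% and 14.3% of all genes. The median log2 ratio was 0.33 (quartiles 0.10 and 0.75), beside 0.05 over all genes. All 9 Rps genes had a ratio above 0, as did 8 of 13 Rpl genes, beside 50.6% of all 8145 genes. However, 68.2% of members were called in the siRNA library alone, beside 51.1% of all genes. Among the Rps genes these were Rps3, Rps9, Rps12, Rps16, Rps20, Rps24 and Rps29. Of genes called there alone, 12 of 15 members (80%) and 74.9% of all genes had a ratio above 0. No direction is therefore read for the group or for a subunit.

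Rps21 and Rps19, higher with TGF-b, had ratios near 0 with siRNA. Rps21 had 29 and 32 reads (0.17, -0.54 to 0.89), Rps19 had 31 and 33 (0.12, -0.58 to 0.82) and Rpl37 had 17 and 21 (0.35, -0.54 to 1.27), and these were the 3 members called in both libraries. Intervals also span 0 for Rpl13a (16 and 22 reads), Rpl26 (10 and 17), Rpl22 (7 and 13), Rps3 (13 and 14), Rps24 (13 and 14), Rps12 (8 and 12), Rps20 (8 and 12), Rpl14 (15 and 13), Rplp1 (13 and 11), Rpl27 (11 and 11), Rpl36a (8 and 10), Rpl10 (9 and 6) and Rpl35a (6 and 7). In the order NC, TGF-b, siRNA, Rps21 had 3, 29 and 32 reads and Rps19 had 8, 31 and 33, so both stood lowest in NC.

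**Figure D4:**
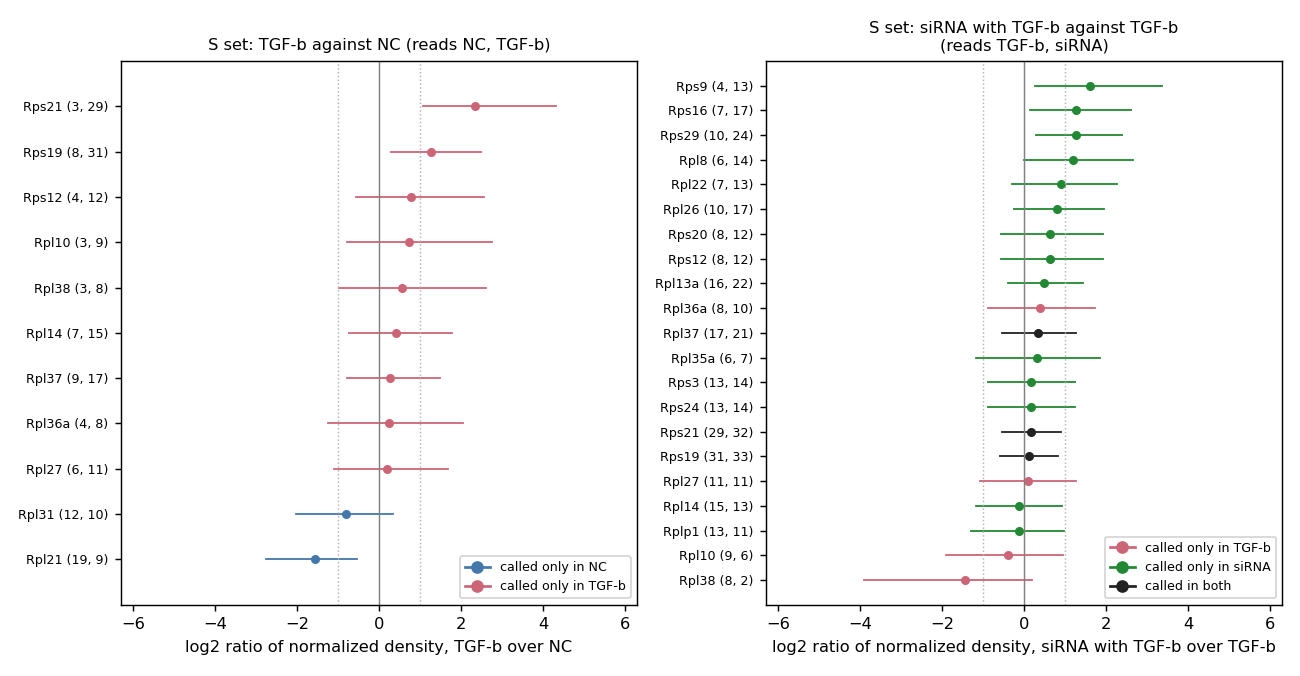
Log2 ratio of normalized read density (x axis) for ribosomal protein genes in the S set, TGF-b over NC on the left (11 genes) and siRNA with TGF-b over TGF-b on the right (21 of 22 genes), with reads in both libraries after each name. Bars are Wilson 95% intervals for counting error, dotted lines mark 2-fold, and colours show in which library the region was called. Rps21 and Rps19 lead on the left and stand near 0 on the right.

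Members with values in both sets were set side by side. For TGF-b against NC, 9 members had values in both sets, with opposite signs in 4 (42.9% of all 4976 such genes). Rps21 had 51 and 51 reads in the T set but 3 and 29 in the S set, and Rps19 had 52 and 38 against 8 and 31. Rpl31 had ratios of -2.16 and -0.81 and Rpl27 of 1.71 and 0.20, in each case with an S set interval that spans 0. For siRNA against TGF-b, 20 members had values in both sets, with opposite signs in 9 (52.7% of all 6132). Rps21 (-1.05 in the T set, 0.17 in the S set), Rps20 (-1.68 and 0.63) and Rpl37 (-0.95 and 0.35) were among these, whereas Rpl26 (2.05 and 0.79) and Rpl8 (1.46 and 1.20) had ratios above 0 in both, with S set intervals that span 0. The Rpl8 regions of the sets do not overlap, lying 755 bp past the start in the T set and 37 bp before it in the S set. No member had counting intervals on opposite sides of 0 in the 2 sets, and the difference between sets was not tested. Regions of the same gene overlapped between the sets in 6 of the 9 (43.0% of all genes) and in 16 of the 20 (50% of all).

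**Figure D5:**
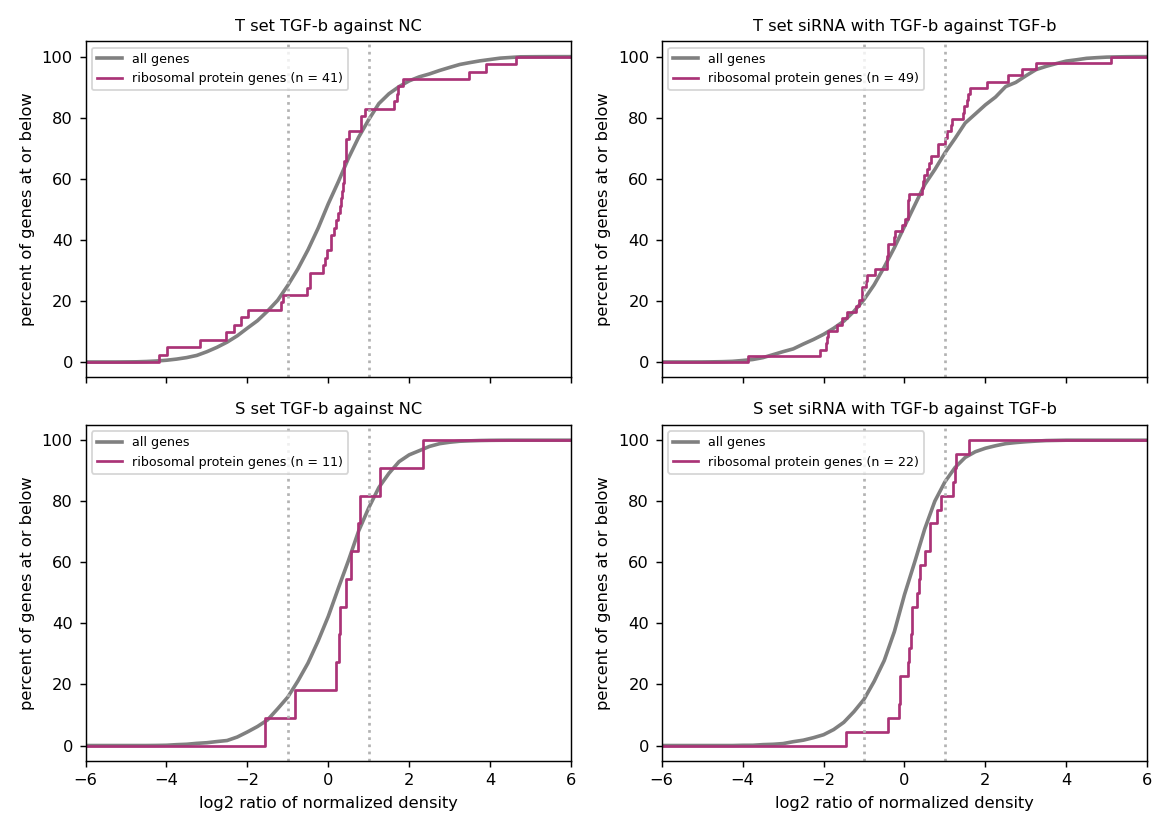
Cumulative percentage of genes (y axis) at or below each log2 ratio of normalized density (x axis) for ribosomal protein genes (purple steps) and all genes with a promoter region (grey), in the 4 comparisons, with dotted lines at 2-fold. The steps run close to the grey line in the T set siRNA comparison (medians 0.09 and 0.20) and to its right around 0 in the others (medians 0.29 and -0.04, 0.43 and 0.20, 0.33 and 0.05).

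The remaining lists are read beside all genes, of which 20.6% were at least 2-fold higher and 25.1% lower in the T set for TGF-b against NC (median -0.04), and 31.5% and 20.4% for siRNA against TGF-b (0.20). In the S set these shares were 22.2% and 15.9% (0.20), and 13.6% and 15.1% (0.05). Mitochondrial ribosomal protein genes, which build the ribosome of the organelle, had a median log2 ratio of 0.30 in the T set for TGF-b against NC (12 of 40 at least 2-fold higher, 5 lower) and 0.44 in the S set (2 of 13 higher, 2 lower). With siRNA the medians were 0.05 (11 of 45 higher, 13 lower) and 0.03 (3 of 16 higher, 3 lower). Their medians in TGF-b against NC were thus close to those of the cytosolic genes in each set. Among ribosomal genes that the symbol rule does not take, Rack1, a scaffold on the small subunit, had 1 and 13 reads in T set NC and TGF-b (2.98, 1.30 to 6.45), and Rpl36al had 25 and 17 (-0.48, -1.38 to 0.37). Fau had no region within 3 kb.

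Ribosome biogenesis genes, which make and process rRNA, had a T set median of 0.71 for TGF-b against NC (8 of 23 at least 2-fold higher and 3 lower, beside 20.6% and 25.1% of all genes) and -0.12 for siRNA against TGF-b (3 higher and 3 lower, beside 31.5% and 20.4%). Rrp9, which acts in early rRNA processing, had 7 reads in S set NC and 51 in TGF-b (2.15, 1.20 to 3.43), then 23 with siRNA (-1.09, -1.83 to -0.42). Its T set reads were 5 in NC, 15 in TGF-b and 0 with siRNA. Fbl, the rRNA methyltransferase, had 7, 23 and 4 reads in the 3 T set libraries. The whole biogenesis list in the S set was small, with a median of 1.35 for TGF-b against NC (3 of 5 higher, 0 lower) and -0.22 for siRNA (0 of 9 higher, 1 lower).

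Translation factors had a T set median of -0.22 for TGF-b against NC (6 of 30 higher, 5 lower) and -0.70 for siRNA against TGF-b (0 of 29 higher and 8 lower, beside 31.5% and 20.4% of all genes, with intervals below 0 in 11, beside 20.3%). Eif5a had 102, 97 and 34 reads in T set NC, TGF-b and siRNA, and Eif1 had 57, 86 and 41. S set medians were 0.66 (5 of 13 higher, 2 lower) and 0.13 (2 of 14 higher, 1 lower). Genes of growth control had medians of -0.08 over 7 genes and 0.48 over 6 (T set), and 0.07 over 2 and 0.36 over 3 (S set). Larp1, which binds the pyrimidine run of ribosomal protein transcripts, had 20 reads in T set NC and 0 in TGF-b. Mtor, the kinase that governs their translation, had 24 and 35 (0.54, -0.18 to 1.30).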

How the data were processed

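CUT&Tag-seq was performed by the authors in 6 libraries. Per the study's methods, reads were mapped to GRCm39 with Bowtie2 and peaks were called with Masc2; the submitters' processing notes list mm10 and BWA 0.7.12. Gene coordinates in the tables matched GRCm38 (GENCODE M21) in at most 2.1% of shared transcripts, although at least 97.8% had equal lengths, so no coordinate was joined to that build. A spike-in was not used here. The values deposited are a signal, normalized read density, that the authors rescaled along a straight line between 2 libraries. Undoing the line gave whole reads (within 0.1) in at least 99.97% of regions, at a density of 0.5 per read. The authors' fold changes, M and A values and p-values were not used. Unmatched columns numbered 0.

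Per gene, the densest region within 3 kb was kept, and log2 ratios were the later over the earlier library. Intervals were taken from Wilson 95% intervals of the share of reads (scipy 1.17.1). Calls were at least 2-fold. Ratio and interval code was tested on simulated data. Intervals and floors (3 reads) cover counting error only, and PCR copies are not independent molecules. Members, lists and tests were chosen with earlier results of these data known. Genes named were the 5 largest in each direction per comparison with at least 20 reads, those called in both libraries of every table of a set, and a fixed list; the others are named to account for the members, a few of which are counted but not reported here by name. Alternatives are given in the closing section.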

Additional observations from a re-analysis of the deposited data

How the results depend on the processing

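Rank 95% intervals of the medians, taken over member genes, were -0.08 to 0.43 in the T set for TGF-b against NC and -0.42 to 0.60 for siRNA against TGF-b. Those of the S set were -0.81 to 1.27 and 0.09 to 0.79. Medians in all 4 comparisons stayed within them under every alternative. The intervals describe spread among genes, not libraries, so they show neither that a median is stable nor that it differs from 0. The S set median for TGF-b against NC was 0.23 after centring on all promoters and 1.0 without the authors' line. Counts past 2-fold moved by over 1.5 times as follows. With at least 20 reads in both libraries together, T set counts fell to 4 higher and 4 lower for TGF-b against NC and to 5 higher and 7 lower for siRNA, and S set members lower with siRNA to 0, as fewer genes were left. Only regions called in both libraries, an alternative chosen after seeing the data, gave 1 higher and 0 lower for TGF-b against NC in the T set, 0 higher and 1 lower for siRNA, and 0 higher and 0 lower for siRNA in the S set; S set TGF-b against NC had no such region. In the S set for TGF-b against NC, 6 members were higher without the authors' line, 4 were higher and 2 lower at 1.5-fold, and 2 were lower after centring on all promoters; the cause was not tested. For S set siRNA, 8 were higher at 1.5-fold, and 0 were lower within 1 kb. The nearest region, reads of 3 or fewer set to 3, and leaving out paralogs moved no count by over 1.5 times. Of the genes past 2-fold or with an interval that excludes 0, only Rps9 changed sign, in the T set for siRNA against TGF-b (-1.89, but 0.12 at the floor of 3 reads, since its siRNA library had 0 reads). No paired analysis was possible because each group had 1 library. Depth limits many members: at least 20 reads in both libraries together were found in 28 of 41 and 31 of 49 T set members and in 6 of 11 and 17 of 22 S set members.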

Other observations

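A region called as a peak in 1 library was not always denser there, and reads were counted over 2 kb, wider than the called regions. In the T set for TGF-b against NC, 7 of 28 members called in 1 library were denser in the other (25%, beside 19.4% of all genes): Rpl14, Rpl29, Rpl3, Rpl39, Rps26, Rps3 and Rpsa. For siRNA against TGF-b the same held for 7 of 37 (18.9% against 18.1%), with Rpl15 the widest, called only with siRNA at 6 reads beside 40 in TGF-b. In the S set it held for 0 of 11 for TGF-b against NC (beside 14.4% of all genes) and for 5 of 19 for siRNA against TGF-b (26.3% against 19.5%). Among members with a RefSeq promoter entry, the palindrome TCGCGA was found in 4 of 38 with a region within 3 kb and in 13 of 64 in all.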
